A study of Mus musculus with 9 samples.

Results

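In mouse embryos at E2.75, 87 of 20087 named genes stood low after knockdown of the deacetylase pair Hdac1 and Hdac2 and also after knockdown of Sin3a. These genes were chosen by their measured values. Each has a mean of at least 50 normalised counts in control embryos, all 6 knockdown values below its lowest control value, and a mean in each knockdown of at most 60% of the control mean. All differences from control described below for the 87 genes are therefore a description of that choice, without a test. Normalised counts are read counts per gene that the authors scaled between libraries, so they can be compared between samples of 1 gene and not between genes of different length.

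The embryos were of the B6D2F1 background and had been injected with small interfering RNA (siRNA) at the zygote stage. The Hdac1/2 cKD group (a co-knockdown) received siRNA to Hdac1 and Hdac2, the Sin3a KD group received siRNA to Sin3a, and the NC group, labelled wild type, received a nonspecific siRNA. Each group has 3 libraries of polyadenylated RNA, and each library came from a pool of 60 whole embryos. Because the knockdown is made by injected siRNA, RNA of the target genes is lowered and not removed. Whether the pools of a group were collected separately is not stated in the labels. The p-values below measure the spread between these samples, which may be technical.

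Hdac1 and Hdac2 encode class I histone deacetylases, enzymes that take acetyl groups off histone tails and so mostly favour repressed chromatin. SIN3A binds both enzymes as the backbone of the Sin3 corepressor, and the enzymes also work in the NuRD and CoREST complexes. RNA measured at 1 time does not separate direct from indirect targets. In the morula, cells begin to set aside the trophectoderm, the outer layer that later forms the placenta, from the inner cell mass.

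Normalised counts added up to between 11923010 and 13478587 per library, and the number of reads behind them was not recovered here. NC replicate 3 stood apart from the other libraries on the first principal component (-96.6) and listed 28.4% of genes at 0, the highest share of the 9 libraries. The libraries ran on several sequencing lanes, per the labels. NC replicate 1 and Sin3a KD replicate 1 were each alone on a lane. All 87 genes passed the filter for testing, which asked that 3 or more libraries reach a value of 10. In pools of whole embryos, fewer cells of a type and less RNA per cell cannot be told apart.

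Across the 87 genes, Hdac1/2 cKD means lay between 11.9% and 59.1% of the NC mean, with a median of 43.1%. Sin3a KD means lay between 11.6% and 59.6%, with a median of 45.5%. Over all 9541 genes with an NC mean of at least 50, the medians were 95.8% and 98.2%. At or below 50% of NC in both knockdowns were 39 of the genes, and at or below 25% in both were 5. The choice passed through 534 genes that met the rule in Hdac1/2 cKD, taken by itself, and 379 that met it in Sin3a KD, so the 87 genes are 16.3% of the first list and 23.0% of the second. Both lists use the same NC libraries, so they are not independent. The mirrored rule, for genes raised in both, gave 113 genes.

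**Figure D1:**
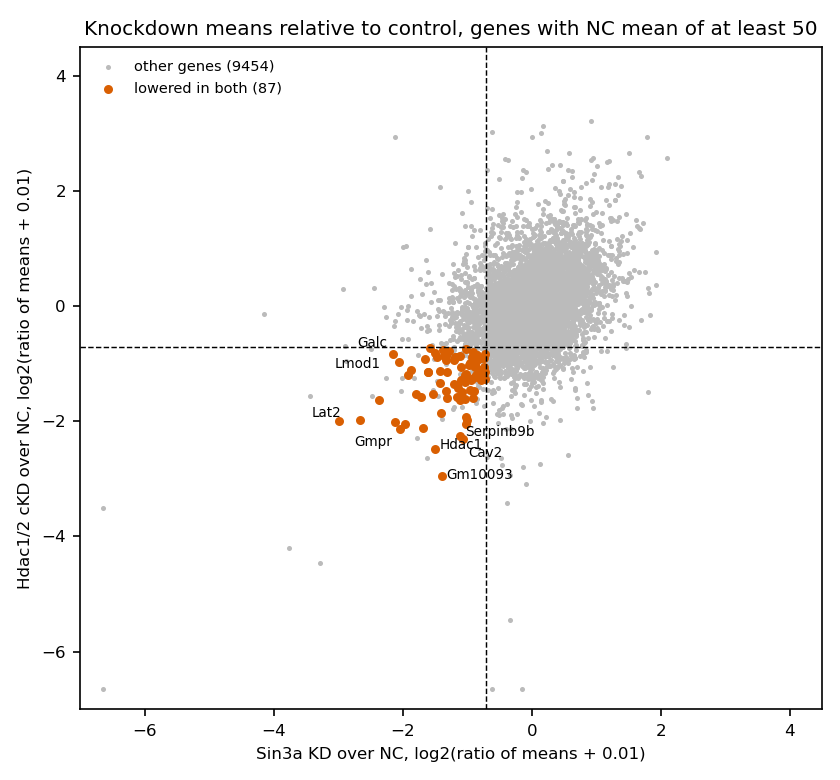
Each point is a gene with an NC mean of at least 50, placed by its Sin3a KD mean over NC (x axis) and its Hdac1/2 cKD mean over NC (y axis), both as log2 of the ratio plus a small constant. The 87 chosen genes (orange) fill the corner below both dashed lines at 60% of NC, with Gm10093 and Hdac1 lowest on the y axis and Lemd1 and Lat2 leftmost. Grey points in that corner are the 74 genes that met both ceilings and overlapped NC.

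Single libraries had similar medians. As a percentage of the NC mean, the median over the 87 genes was 40.4%, 47.5% and 41.7% in Hdac1/2 cKD replicates 1 to 3. It was 44.8%, 48.8% and 39.0% in those of Sin3a KD, against 99.4%, 92.5% and 108% in those of NC. On lane 2, Hdac1/2 cKD replicates 1 and 2 had a median of 48.3% of NC replicate 2. On lane 3, the median was 37.8% of NC replicate 3 in Hdac1/2 cKD replicate 3 and 42.9% in Sin3a KD replicates 2 and 3. Within lane 3 the gene closest to control was Galnt16, a glycosyltransferase that starts mucin-type sugar chains, with Hdac1/2 cKD replicate 3 at 97.6% of NC replicate 3.

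**Figure D2:**
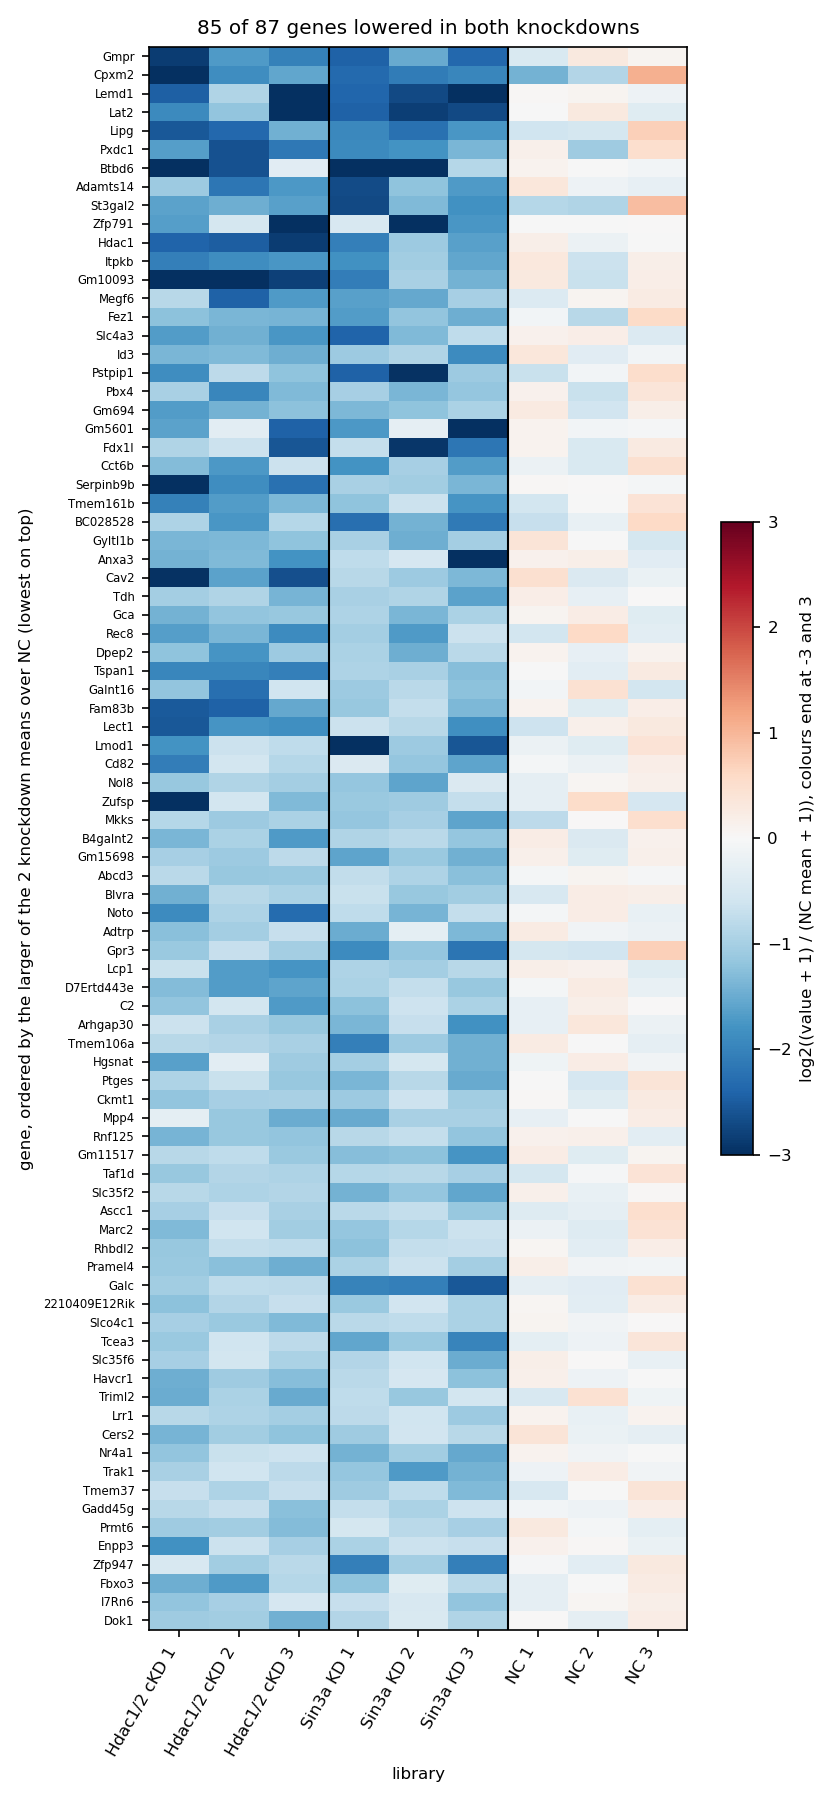
Rows are 85 of the 87 genes, ordered from the lowest (Gmpr, top) to those nearest the ceiling (Dok1, bottom), and columns are the 9 libraries. Colour gives the log2 of each value plus 1 over the NC mean plus 1, blue for lower and red for higher. The 6 knockdown columns are blue throughout, and red cells in the NC replicate 3 column mark genes whose NC mean that library raises, such as Cpxm2, Lipg and St3gal2.

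Of the targeted genes, only Hdac1 is among the 87. It had 1052, 1007 and 769.6 normalised counts in Hdac1/2 cKD and 1333, 2597 and 1802 in Sin3a KD, against 6245, 4925 and 5536 in NC. Embryos given Sin3a siRNA thus also had low Hdac1 RNA, at 1910.4 ± 639 (SD, n = 3) or 34.3% of NC, though their siRNA was directed at another gene. Hdac2 had 193, 350.3 and 371 normalised counts in Hdac1/2 cKD and 2136, 2036 and 2008 in Sin3a KD, against 2347, 2020.3 and 2492 in NC. Hdac2 fell in Hdac1/2 cKD (log2 -2.95, SE 0.20, limma adjusted p = 2.90e-06) and did not pass in Sin3a KD (log2 -0.15, adjusted p = 0.711). Sin3a had 354, 520.1 and 418 in Sin3a KD and 1990.2, 2239.7 and 1903 in Hdac1/2 cKD, against 1779, 1215 and 1459 in NC. Sin3a fell in Sin3a KD (log2 -1.78, SE 0.17, limma adjusted p = 0.000652) and did not pass in Hdac1/2 cKD (log2 0.48, adjusted p = 0.0693). Hdac3, another class I deacetylase, did not pass in Hdac1/2 cKD (log2 0.15, adjusted p = 0.631) or in Sin3a KD (log2 0.07, adjusted p = 0.861).

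Gm10093 is annotated as a processed pseudogene on chromosome 17 (GRCm38 chr17:78491582-78493025), whereas Hdac1 lies at chr4:129516104-129542713 on the reverse strand. It had 84.6, 64.4 and 98.8 normalised counts in Hdac1/2 cKD and 162, 350.2 and 259 in Sin3a KD, against 844, 438 and 794 in NC. In the GENCODE transcripts, 86.1% of the distinct stretches of 31 bases in Gm10093 also occur in Hdac1, and 34.8% of those in Hdac1 occur in Gm10093. Reads from either can therefore be assigned to the other, and the Gm10093 values are uncertain as a measure of that locus. The order of the replicates differs between them in Hdac1/2 cKD, where replicate 3 is lowest for Hdac1 and highest for Gm10093. In Sin3a KD and in NC the order of the replicates is the same for both.

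The lowest genes relative to control had low counts. Gmpr, a reductase that returns guanosine monophosphate to the purine pool, had 7.22, 17.1 and 13.5 in Hdac1/2 cKD and 9.96, 19.7 and 10.5 in Sin3a KD, against 41.9, 70.5 and 60.8 in NC. Lat2, an adaptor of immune-cell receptor signalling, had 16.9, 28.7 and 3.02 in Hdac1/2 cKD and 11.5, 8.49 and 9.31 in Sin3a KD, against 66.1, 82.0 and 51.3 in NC. Lemd1, a protein with the LEM domain found in nuclear envelope proteins, had 8.88, 27.8 and 1.28 in Hdac1/2 cKD and 9.34, 7.18 and 1.85 in Sin3a KD, against 54.5, 56.2 and 47.7 in NC. For these genes the knockdown libraries overlap each other and lie well apart from NC. Pxdc1, a PX-domain protein, was at 22.1% of NC in Hdac1/2 cKD and 30.1% in Sin3a KD, with NC values of 58.0, 24.2 and 74.4 that scattered more than those of Lemd1.

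Some of the lowest ratios rested on NC replicate 3. Cpxm2, a secreted protein of the carboxypeptidase family, had 9.29, 22.3 and 28.1 in Hdac1/2 cKD and 15.9, 18.7 and 21.0 in Sin3a KD, against 30.9, 45.2 and 176 in NC. Without NC replicate 3, its knockdown means were 52.2% and 48.7% of NC in place of 23.7% and 22.1%. Lipg, endothelial lipase, had 8.89, 10.4 and 20.2 in Hdac1/2 cKD and 14.2, 11.3 and 16.4 in Sin3a KD, against 37.3, 39.1 and 94.8 in NC. St3gal2, a sialyltransferase of the Golgi, had 122, 135 and 119.7 in Hdac1/2 cKD and 56.3, 149 and 106 in Sin3a KD, against 207, 199.999 and 718 in NC. Without that library, St3gal2 stood at 61.7% of NC in Hdac1/2 cKD, above the ceiling of the choice. Fez1, an adaptor of the motor protein kinesin, had 26.7, 24.3 and 23.9 in Hdac1/2 cKD and 19.5, 27.8 and 22.8 in Sin3a KD, against 61.2, 35.7 and 96.9 in NC. NC replicate 3 was the highest of the NC libraries for 40 of the 87 genes (46.0%), against 34.7% of tested genes with an NC mean of at least 50. It exceeded 150% of the mean of the other NC libraries for 20 of the 87 (23.0%), against 7.89% of the 9541 genes. Without it, 69 of the 87 genes still had both means at or below 60% of NC.

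For 3 genes a knockdown library was listed at 0 while others were well above it. Btbd6, a BTB-domain adaptor of ubiquitin ligases, had 0, 15.1 and 77.0 in Hdac1/2 cKD and 0, 0 and 53.9 in Sin3a KD, against 106, 96.8 and 92.6 in NC. Zfp791, a zinc finger protein, had 34.7, 76.5 and 0 in Hdac1/2 cKD and 78.8, 0 and 32.5 in Sin3a KD, against 109.7, 111 and 112 in NC. Zufsp, a zinc finger peptidase of ubiquitin chains, had 0, 43.5 and 25.3 in Hdac1/2 cKD and 29.2, 30.2 and 38.6 in Sin3a KD, against 53.2, 95.3 and 45.1 in NC. Whether an exact 0 is a failed estimate was not tested. Replicates of the 87 genes also scattered more than those of the 9541 genes with an NC mean of at least 50, which include them. The median coefficient of variation was 19.3% in Hdac1/2 cKD, 20.6% in Sin3a KD and 21.5% in NC, against 11.6%, 12.2% and 16.3% over the 9541 genes. The comparison was not matched for level: the median NC mean was 152 over the 87 genes and 469 over the 9541.

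Nuclear regulators form 1 of the 9 role groups into which 58 of the 87 genes were sorted from textbook knowledge, after the genes were known. The 11 regulators had medians of 50.8% of NC in Hdac1/2 cKD and 43.8% in Sin3a KD. Id3 (chr4:136143497-136145755), which blocks DNA binding by basic helix-loop-helix factors and is a target of BMP signalling, had 578, 596 and 538 in Hdac1/2 cKD and 698, 800.4 and 399 in Sin3a KD, against 1899, 1169 and 1398 in NC. Its paralogs Id1, Id2 and Id4 did not pass in either knockdown, with adjusted p between 0.201 and 0.926 in Hdac1/2 cKD and between 0.249 and 0.620 in Sin3a KD. Nr4a1 (chr15:101254269-101274795), an orphan nuclear receptor that responds early to many signals, had 224, 320.2 and 327 in Hdac1/2 cKD and 188, 245 and 174 in Sin3a KD, against 547, 474 and 500.3 in NC. Its paralogs did not pass in either knockdown, with adjusted p of 0.737 and 0.710 for Nr4a2 and 0.658 and 0.134 for Nr4a3. Nr4a2 scattered widely, with 70.9, 470.0 and 63.6 in Hdac1/2 cKD and 87.8, 76.6 and 429.8 in Sin3a KD, against 196, 99.6 and 26.0 in NC.

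Prmt6 (chr3:110246109-110250998, reverse strand), which methylates arginines of histone tails, had 395, 400.2 and 334 in Hdac1/2 cKD and 574, 467 and 413 in Sin3a KD, against 1005, 794 and 673 in NC. Among the other tested arginine methyltransferases, Prmt3 fell in Sin3a KD (log2 -0.71, SE 0.16, limma adjusted p = 0.0181) and did not pass in Hdac1/2 cKD (adjusted p = 0.281). The Prmt3 call was lost without NC replicate 3 (log2 -0.57, adjusted p = 0.0589), without Sin3a KD replicate 1 or replicate 3, with plain variance moderation and with sequencing lane as a factor. Gadd45g, a stress-inducible gene that has been tied to DNA demethylation, had 42.1, 46.4 and 31.4 in Hdac1/2 cKD and 45.8, 38.9 and 48.7 in Sin3a KD, against 72.3, 68.7 and 87.1 in NC. Its paralog Gadd45b rose in Hdac1/2 cKD, with 249, 306 and 231 in Hdac1/2 cKD, against 67.0, 89.9 and 77.6 in NC (log2 1.73, SE 0.25, limma adjusted p = 0.000626). Gadd45b did not pass in Sin3a KD (log2 0.49, adjusted p = 0.263).

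Homeobox genes among the regulators were Pbx4 and Noto. Pbx4, a cofactor of HOX proteins, had 29.1, 14.4 and 22.8 in Hdac1/2 cKD and 29.0, 22.2 and 25.7 in Sin3a KD, against 64.1, 36.2 and 75.006 in NC. Noto, a homeobox gene known from the notochord, had 18.4, 36.7 and 13.5 in Hdac1/2 cKD and 41.4, 26.2 and 43.3 in Sin3a KD, against 68.8, 83.4 and 61.3 in NC. Both are low in counts, and NC replicate 2 is the lowest NC library for Pbx4 and the highest for Noto. The group also holds Tcea3, a transcription elongation factor, at 56.0% of NC in Hdac1/2 cKD and 34.4% in Sin3a KD, and Taf1d, a subunit of the RNA polymerase I selectivity factor, at 50.8% and 53.9%.

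**Figure D3:**
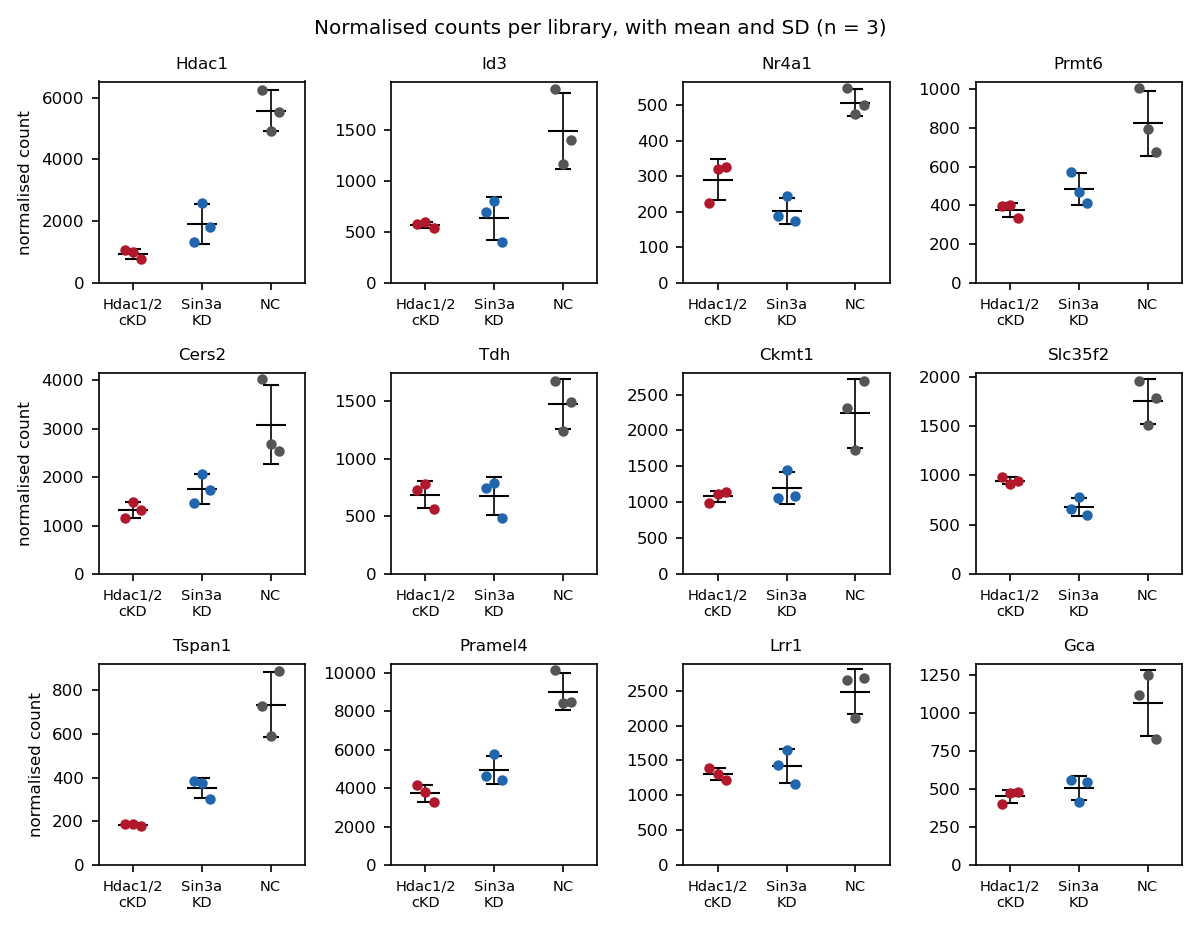
Normalised counts per library for 12 of the 87 genes, with Hdac1/2 cKD (red), Sin3a KD (blue) and NC (grey) from left to right, the mean as a bar and the SD as whiskers (n = 3). In every panel the 6 knockdown points lie below the NC points, as the choice requires, and only Hdac1, Slc35f2, Tspan1 and Pramel4 passed the test between the knockdowns.

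Enzymes of sphingolipids and sugar chains make up 7 of the genes, with medians of 43.0% of NC in Hdac1/2 cKD and 48.3% in Sin3a KD. Cers2 (chr3:95314791-95323599), the ceramide synthase that uses very long acyl chains, had 1164, 1488 and 1326 in Hdac1/2 cKD and 1463.5, 2065 and 1735 in Sin3a KD, against 4014, 2674 and 2547 in NC. Galc, the lysosomal enzyme that splits galactosylceramide, had 54.2, 66.9 and 65.7 in Hdac1/2 cKD and 27.4, 26.5 and 18.8 in Sin3a KD, against 94.4, 88.8 and 157 in NC. The other 5 are St3gal2, B4galnt2, Galnt16, Gyltl1b and Hgsnat. The paralog Cers6, a ceramide synthase that favours shorter acyl chains, had 612, 785 and 609 in Hdac1/2 cKD and 1996, 2120.0 and 2202 in Sin3a KD, against 1249.6, 1366 and 938 in NC. Cers6 fell in Hdac1/2 cKD (log2 -0.82, SE 0.15, limma adjusted p = 0.00305) and rose in Sin3a KD (log2 0.85, SE 0.15, adjusted p = 0.00633). The rise was no longer called with plain variance moderation (adjusted p = 0.0613). The difference between the knockdowns passed (log2 -1.66, SE 0.15, adjusted p = 1.72e-05). Cers4 went the other way between the knockdowns (log2 2.43, SE 0.52, limma adjusted p = 0.00563), a call lost with lane as a factor. It did not pass against NC in either knockdown. Cers5 fell in Hdac1/2 cKD (log2 -0.42, SE 0.12, limma adjusted p = 0.0338), a call kept in 10 of 17 alternatives, and did not pass in Sin3a KD (adjusted p = 0.581). Cers1 did not pass in any of these comparisons.

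Metabolic enzymes make up another 9 genes, with medians of 47.9% of NC in Hdac1/2 cKD and 45.8% in Sin3a KD. Tdh, the threonine dehydrogenase that mouse embryonic stem cells depend on, had 725, 782 and 563 in Hdac1/2 cKD and 750.3, 789 and 484 in Sin3a KD, against 1678, 1246 and 1493 in NC. Ckmt1, the mitochondrial creatine kinase, had 990.5, 1117 and 1136 in Hdac1/2 cKD and 1055, 1449.6 and 1090.3 in Sin3a KD, against 2308, 1727 and 2683 in NC. The cytosolic creatine kinase Ckb rose in Hdac1/2 cKD (log2 0.39, SE 0.11, limma adjusted p = 0.0261) and did not pass in Sin3a KD (adjusted p = 0.585). The call in Hdac1/2 cKD was lost without NC replicate 3 (adjusted p = 0.0567) and also without NC replicate 2 or Hdac1/2 cKD replicate 2 or 3. It was lost with plain variance moderation as well. Ptges makes prostaglandin E, a lipid signal. It had 373, 450.5 and 322 in Hdac1/2 cKD and 274, 403 and 249 in Sin3a KD, against 706, 504 and 933 in NC. Abcd3, a transporter of fatty acids into peroxisomes, had 406, 323 and 328 in Hdac1/2 cKD and 425, 372 and 296 in Sin3a KD, against 684, 749.9 and 687 in NC. In Tdh, Ckmt1, Ptges and Abcd3 the knockdowns overlap each other. Blvra, Marc2 and Fdx1l complete the group with Gmpr and Lipg. For Fdx1l, a mitochondrial ferredoxin, 71.4% of the 31-base stretches are shared with the annotated gene Gm38431, so its values of 44.4% of NC in Hdac1/2 cKD and 31.7% in Sin3a KD are uncertain.

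The 4 membrane transporters were Slc35f2, Slc35f6, Slco4c1 and the anion exchanger Slc4a3. Slco4c1, an organic anion transporter, had 862, 789 and 679 in Hdac1/2 cKD and 975, 1007 and 881 in Sin3a KD, against 1805, 1599 and 1719 in NC. Slc35f2, a solute carrier, had 984, 913 and 943 in Hdac1/2 cKD and 658, 777 and 595 in Sin3a KD, against 1954, 1510.4 and 1782 in NC. The knockdown groups do not overlap for Slc35f2, whose lower group is Sin3a KD, and they do not overlap for Slco4c1, whose lower group is Hdac1/2 cKD. Slc4a3 stood at 32.2% of NC in Hdac1/2 cKD and 39.1% in Sin3a KD, and Slc35f6 at 56.7% and 52.0%.

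Membrane, adhesion and cytoskeletal genes form the other group of 11, with medians of 42.6% of NC in Hdac1/2 cKD and 46.7% in Sin3a KD. Tspan1 (chr4:116161869-116167601, reverse strand), a tetraspanin of epithelial membranes, had 188, 189.7 and 177 in Hdac1/2 cKD and 387, 373 and 303 in Sin3a KD, against 727, 588 and 887 in NC. The 3 groups of Tspan1 form 3 steps with no overlap. Lcp1, an actin-bundling plastin, had 141, 69.6 and 65.5 in Hdac1/2 cKD and 117, 109 and 125 in Sin3a KD, against 252, 247 and 175 in NC. Anxa3, a calcium-dependent membrane-binding annexin, had 27.6, 29.6 and 21.1 in Hdac1/2 cKD and 44.4, 52.8 and 6.97 in Sin3a KD, against 82.0, 85.3 and 59.0 in NC. Sin3a KD replicate 3 is far below its replicates for Anxa3 and level with them for Lcp1. Cav2, a caveolin of membrane pits, had 6.10, 17.2 and 7.91 in Hdac1/2 cKD and 30.02, 25.0 and 20.6 in Sin3a KD, against 75.4, 39.4 and 47.1 in NC. The group also holds the tetraspanin Cd82, the smooth-muscle actin nucleator Lmod1, Arhgap30, the cytoskeletal adaptor Pstpip1, the phosphatidylserine receptor Havcr1, the ectonucleotidase Enpp3 and Trak1, which links mitochondria to motor proteins. Lmod1 stood at 50.01% of NC in Hdac1/2 cKD and 22.9% in Sin3a KD, and Pstpip1 at 42.6% and 25.5%, with overlap between the knockdowns in both.

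Signalling genes numbered 5, with medians of 44.0% of NC in Hdac1/2 cKD and 31.8% in Sin3a KD. Gpr3, the receptor that holds mouse oocytes in meiotic arrest, had 74.3, 98.9 and 78.4 in Hdac1/2 cKD and 43.0, 71.0 and 34.6 in Sin3a KD, against 111, 108 and 264 in NC. Without NC replicate 3 it stood at 76.4% of NC in Hdac1/2 cKD and 45.1% in Sin3a KD. Itpkb, a kinase of inositol trisphosphate, had 33.5, 38.4 and 41.3 in Hdac1/2 cKD and 39.5, 68.4 and 47.0 in Sin3a KD, against 175, 90.0 and 159 in NC. The docking protein Dok1 stood at 44.0% of NC in Hdac1/2 cKD and 59.6% in Sin3a KD. Secreted and matrix proteins also numbered 5, with medians of 32.6% and 38.6%. Of these, Adamts14, which trims procollagen, had 59.3, 27.7 and 37.9 in Hdac1/2 cKD and 18.9, 54.7 and 38.9 in Sin3a KD, against 161, 115 and 107 in NC. Megf6, a protein with EGF-like repeats, had 115, 37.6 and 62.5 in Hdac1/2 cKD and 65.3, 69.6 and 102 in Sin3a KD, against 155, 217 and 243 in NC. The complement gene C2 and the cartilage gene Lect1 complete this group with Cpxm2.

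Families known from germ cells and early embryos gave 4 genes, among them Pramel4, Rec8 and Triml2. Pramel4 (chr4:144059126-144069327), of the Prame-like leucine-rich repeat family of mouse early embryos, had 4139.8, 3805 and 3268 in Hdac1/2 cKD and 4652, 5791 and 4418 in Sin3a KD, against 10144, 8439 and 8474 in NC. Its relatives Pramel5, Pramel6 and Pramel7 each stood above the 60% ceiling in 1 knockdown. Pramel5 fell in Hdac1/2 cKD (log2 -0.76, SE 0.10, limma adjusted p = 0.000268) and in Sin3a KD (log2 -0.58, adjusted p = 0.00539). Pramel6 fell in Hdac1/2 cKD (log2 -0.78, adjusted p = 8.47e-05) and in Sin3a KD (log2 -0.54, adjusted p = 0.00418). Pramel7 fell in Hdac1/2 cKD (log2 -0.62, adjusted p = 0.00511) and in Sin3a KD (log2 -0.84, adjusted p = 0.00344). The 3 calls in Sin3a KD, and that of Pramel7 in Hdac1/2 cKD, were lost with plain variance moderation, and those of Pramel5 and Pramel6 in Sin3a KD also with lane as a factor. The direction held for all 3 when libraries were scaled to equal totals, where Pramel5 had log2 -0.64 in Hdac1/2 cKD and -0.48 in Sin3a KD. Pramel1 did not pass in Hdac1/2 cKD (log2 0.56, adjusted p = 0.0729) or in Sin3a KD (log2 -0.33, adjusted p = 0.334). Pramel4 shares 91.5% of its 31-base stretches with other genes, most of them with the gene model Gm13102 (88.3%), so reads of Pramel4 and Gm13102 cannot be told apart with certainty.

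Rec8, the meiotic cohesin subunit, had 29.5, 36.0 and 25.1 in Hdac1/2 cKD and 46.5, 28.7 and 61.2 in Sin3a KD, against 65.1, 145 and 76.7 in NC. Rec8 has an NC value above the rest in replicate 2. Gm5601, an annotated pseudogene of Ppp1cc, a catalytic subunit of protein phosphatase 1, had 238, 586 and 133 in Hdac1/2 cKD and 219.8, 597 and 35.6 in Sin3a KD, against 779, 688 and 705 in NC. It shares 99.0% of its 31-base stretches with Ppp1cc, and its knockdown values range from 35.6 to 597. Over the 86 genes with annotated transcripts, 5 shared over 50% of their stretches with another gene, 11 shared between 10% and 50%, and 70 shared less.

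Of the 87 genes, 86 were placed in the GENCODE annotation of GRCm38, 82 of them protein coding and 4 processed pseudogenes. Chromosome 4 held 11.6% of them and 7.02% of the genes with an NC mean of at least 50. The shares were 8.14% against 3.41% on chromosome 13, 10.5% against 5.83% on chromosome 1 and 10.5% against 8.53% on chromosome 2. None lies on chromosome 16, 19 or X, which hold 3.08%, 3.35% and 3.06% of those genes. In 5 pairs the genes are less than 1000 kb apart on 1 chromosome. Gm15698 and 2210409E12Rik are 5.73 kb apart on chromosome 11, and both share stretches of sequence with Coil. Id3 and Tcea3 are 102 kb apart on chromosome 4.

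Promoters were compared over the 69 genes with an entry in the RefSeq promoter table for GRCm38.p6. Of these, 28 (40.6%) were rich in CpG in the 250 bases before the first start, against 69.0% of the 7206 matched genes with an NC mean of at least 50. The median GC content was 56.0%, against 60.4%. A set of 14 motifs was looked for on both strands of the 250 bases before any listed start. The TEAD motif, GGAATG, whose complement reads CATTCC, is the site of the TEAD factors that act with YAP in the trophectoderm. It was found in 20 of 69 genes (29.0%), against 12.4% of the 7206 genes and 14.4% of all genes in the table. The GC box, GGGCGG, was found in 52.2%, against 67.2% of the 7206 genes. The ETS motif, CCGGAAG, was found in 8.70%, against 18.2%, and the YY1 motif, AAGATGG, in 0 of 69, against 5.30%. The TEAD motif was followed further because its share stood furthest above that of the 7206 genes, a choice made after all 14 shares were seen. Other motifs above them were the TATA box, TATAAA, with 10.1% against 6.92%, the AP-1 motif, TGANTCA, with 7.25% against 4.75%, the GATA motif, AGATAA, with 8.70% against 6.90%, and the octamer, ATTTGCAT, with 2.90% against 1.39%. Below them were the E-box, CACGTG, with 8.70% against 10.4%, the cAMP response element, TGACGTCA, with 2.90% against 3.55%, and its first part, TGACG, which every full element also holds, with 20.3% against 32.7%. The SMAD element, GGCGCC, had 20.3% against 21.2%, the CCAAT box, CCAAT, 40.6% against 41.0%, and the NRF1 motif 0 of 69 against 2.11%. A match is a run of letters and not a shown binding site, and its absence says only that these letters are not in this window.

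Since fewer of these promoters are rich in CpG, the motif was also counted at the first start within each class. It was found in 5 of 28 CpG-rich windows (17.9%), against 8.47% of such windows of the 7206 genes. Among the other windows it was found in 12 of 41 (29.3%), against 14.05%. Over all first starts the counts were 17 of 69 (24.6%), against 10.2%. The share was higher than the background in both classes, as a description without a test, for a motif picked out of 14. Genes with the motif had medians of 48.3% of NC in Hdac1/2 cKD and 41.2% in Sin3a KD, and the 49 without it had medians of 44.1% and 47.6%.

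**Figure D4:**
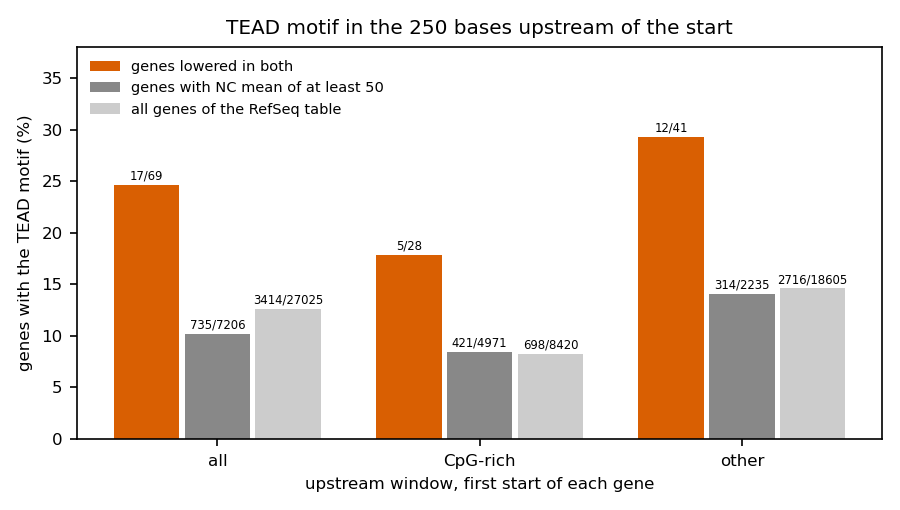
Bars give the percentage of genes with GGAATG on either strand of the 250 bases before their first start, for the genes lowered in both knockdowns (orange), genes with an NC mean of at least 50 (dark grey) and all genes of the RefSeq table (light grey), with counts above the bars. The orange bar is the highest in all windows (24.6%), in CpG-rich windows (17.9%) and in the others (29.3%).

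The 5 genes with the motif and an NC mean of at least 500 were Id3, Nr4a1, Ckmt1, Lrr1 and Ptges. Lrr1 is a leucine-rich repeat protein that acts in ubiquitin ligases, with 1397, 1311 and 1219.5 in Hdac1/2 cKD and 1434, 1653 and 1162 in Sin3a KD, against 2661, 2114 and 2685 in NC. Their upstream sequences, from RefSeq on GRCm38.p6, are shown because they are the best measured of the genes with the motif. Each is read 5′ to 3′ on the strand of the gene and ends at the base before the start, and capitals mark the motif. The windows are chr4:136143572-136143821 for Id3, chr15:101266596-101266845 for Nr4a1, chr2:121357526-121357775 for Ckmt1 and chr12:69168564-69168813 for Lrr1, all on the forward strand. The window for Ptges is chr2:30903298-30903547 on the reverse strand. The starts are those of RefSeq, and only the Lrr1 window ends where its GENCODE gene begins. The windows of Id3, Nr4a1 and Ptges lie inside their GENCODE genes, and that of Ckmt1 overlaps its gene.
Id3: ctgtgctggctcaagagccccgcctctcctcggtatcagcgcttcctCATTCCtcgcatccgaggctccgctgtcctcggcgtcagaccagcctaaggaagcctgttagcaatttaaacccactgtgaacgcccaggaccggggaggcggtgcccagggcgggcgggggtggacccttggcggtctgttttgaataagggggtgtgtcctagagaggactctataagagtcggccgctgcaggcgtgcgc
Nr4a1: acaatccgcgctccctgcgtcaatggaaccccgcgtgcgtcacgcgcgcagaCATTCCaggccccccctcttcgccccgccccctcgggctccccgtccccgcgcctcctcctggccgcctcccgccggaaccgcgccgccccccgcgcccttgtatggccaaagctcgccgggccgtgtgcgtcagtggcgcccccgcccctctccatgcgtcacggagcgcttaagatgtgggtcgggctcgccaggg
Ckmt1: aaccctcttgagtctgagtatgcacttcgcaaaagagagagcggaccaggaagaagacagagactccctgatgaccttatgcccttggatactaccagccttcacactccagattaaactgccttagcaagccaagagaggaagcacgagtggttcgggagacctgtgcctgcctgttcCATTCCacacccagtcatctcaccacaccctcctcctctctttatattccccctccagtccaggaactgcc
Lrr1: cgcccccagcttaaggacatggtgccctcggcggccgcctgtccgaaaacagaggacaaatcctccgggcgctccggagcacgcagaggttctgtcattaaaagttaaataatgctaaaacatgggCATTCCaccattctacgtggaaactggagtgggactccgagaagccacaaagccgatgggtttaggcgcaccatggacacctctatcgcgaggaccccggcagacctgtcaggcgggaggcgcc
Ptges: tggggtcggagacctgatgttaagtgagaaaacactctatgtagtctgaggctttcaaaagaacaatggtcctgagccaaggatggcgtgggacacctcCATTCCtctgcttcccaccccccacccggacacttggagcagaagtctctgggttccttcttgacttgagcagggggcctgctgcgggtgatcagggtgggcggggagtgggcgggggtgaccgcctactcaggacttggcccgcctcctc
The windows were picked for holding the motif. Ckmt1 has 2 starts in the RefSeq table, and its window is that of the first start with the motif. All 5 hold 1 match, read as CATTCC. Its first base lies 203 bases before the start in Id3, 198 in Nr4a1, 71 in Ckmt1, 124 in Lrr1 and 151 in Ptges, so the matches share no fixed distance. The Nr4a1 window has the highest GC content (74.4%) and the Ckmt1 window the lowest (52.8%).

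The knockdowns were then compared with each other, which is the contrast the choice did not use directly, although it caps both means. The cap limits how far the means can differ in counts but sets no bound on the log2 difference. Of the 87 genes, 6 were lower in Hdac1/2 cKD than in Sin3a KD and 3 were higher (limma on log2 of the value plus 1, Benjamini-Hochberg adjusted p below 0.05 over 13343 genes). These are 6.90% and 3.45% of the genes. Over all tested genes, 8.78% were lower and 8.49% higher, 17.3% in either direction, so the share of calls was not above the background. The median log2 difference was -0.10 over the 87 genes and 0.01 over all genes. The other 78 did not pass, which does not show that they stood alike in both knockdowns. The groups did not overlap for 12 genes that were lower in Hdac1/2 cKD and 7 that were higher, 13.8% and 8.05% of the 87. Over all tested genes these shares were 19.3% and 20.4%, or 39.7% together.

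The genes lower in Hdac1/2 cKD included Hdac1 itself and Gm10093. Hdac1 differed by log2 -0.98 (SE 0.21, limma adjusted p = 0.00749) and Gm10093 by log2 -1.58 (SE 0.31, adjusted p = 0.00398). On lane 3, the only lane that holds both knockdowns, the differences were log2 -1.49 and -1.60. Tspan1 differed by log2 -0.93 (SE 0.19, limma adjusted p = 0.00407), with log2 -0.92 on lane 3. These 3 calls were kept when any library was left out, though Tspan1 was not called with lane as a factor (adjusted p = 0.128).

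The other 3 calls in that direction were lost when some single libraries were left out. Fam83b, of a family of scaffold proteins in growth factor signalling, had 50.2, 54.0 and 100.2 in Hdac1/2 cKD and 134, 178 and 115 in Sin3a KD, against 319, 229 and 336 in NC (log2 -1.10, SE 0.30, limma adjusted p = 0.0239, with log2 -0.51 on lane 3). Serpinb9b, a serpin of the intracellular protease inhibitor clade, had 17.8, 40.0 and 30.3 in Hdac1/2 cKD and 74.4, 70.9 and 56.2 in Sin3a KD, against 152, 148 and 143 in NC (log2 -1.23, SE 0.35, adjusted p = 0.0260, with log2 -1.03 on lane 3). Pramel4 differed by log2 -0.40 (SE 0.12, adjusted p = 0.0396, with log2 -0.63 on lane 3). In all 3 genes every Hdac1/2 cKD value lies below every Sin3a KD value. Without Sin3a KD replicate 2, adjusted p was 0.0964 for Fam83b, 0.0757 for Serpinb9b and 0.157 for Pramel4. Without Sin3a KD replicate 1 it was 0.0632, 0.0962 and 0.0702 for these genes in the same order. Leaving out an Hdac1/2 cKD library also ended the call of Fam83b (replicate 1 or 2), Serpinb9b (replicate 1 or 3) and Pramel4 (replicate 2 or 3).

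Galc, Slc35f2 and Zfp947 were higher in Hdac1/2 cKD than in Sin3a KD. Galc differed by log2 1.34 (SE 0.36, limma adjusted p = 0.0192, with log2 1.52 on lane 3), and all 3 Hdac1/2 cKD values lie above the Sin3a KD values. Slc35f2 differed by log2 0.49 (SE 0.14, adjusted p = 0.0241, with log2 0.47 on lane 3), again with no overlap. Zfp947, a zinc finger protein, had 329, 224 and 262 in Hdac1/2 cKD and 111, 228 and 110.0 in Sin3a KD, against 445, 366 and 566 in NC (log2 0.93, SE 0.29, adjusted p = 0.0396, with log2 0.72 on lane 3). For Zfp947 the knockdowns overlap through Sin3a KD replicate 2, 36.7% of its 31-base stretches occur in other genes, and with a replicate block the adjusted p was 0.0623. Each of these 3 calls was lost without Hdac1/2 cKD replicate 2, Hdac1/2 cKD replicate 3 or Sin3a KD replicate 3, with adjusted p for Galc of 0.0709, 0.0617 and 0.0641. Those of Slc35f2 and Zfp947 were also lost without replicate 1 of either knockdown, and that of Zfp947 without NC replicate 1 (adjusted p = 0.0524).

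**Figure D5:**
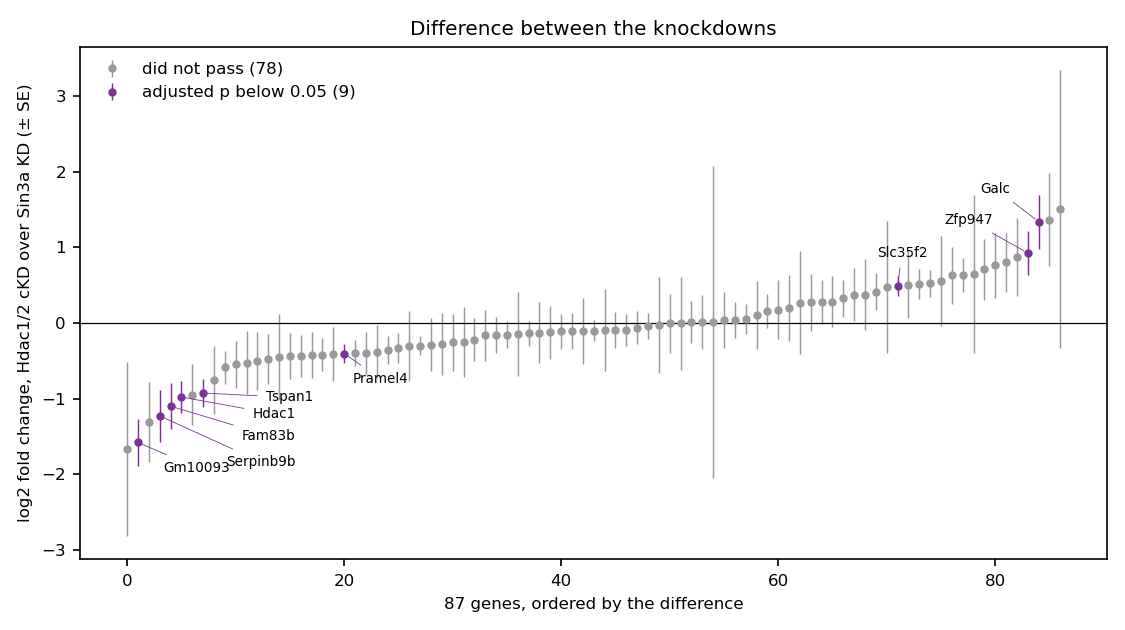
Points are the 87 genes in the order of their log2 fold change, Hdac1/2 cKD over Sin3a KD (y axis), with the standard error as whiskers. The 9 purple points passed, 6 lower and 3 higher in Hdac1/2 cKD. The grey points did not, among them the lowest of all, Zufsp, which has a long whisker and a library listed at 0.

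Against NC, limma called 54 of the 87 genes lower in Hdac1/2 cKD, where 7.8% of all tested genes were called lower, and 50 lower in Sin3a KD, where 4.36% were. The choice used these contrasts, so nothing follows from the counts beyond how strict the choice was: 36 genes were called in both and 19 in neither. The 19 show that a gene can meet the ceiling and the separation of groups in 3 libraries without passing across 13343 tests. Median log2 changes of the 87 genes were -1.22 in Hdac1/2 cKD and -1.12 in Sin3a KD, against 0.03 in both over all tested genes. Nearest the ceiling, by the larger of the knockdown means, were Fbxo3 (59.1% of NC), l7Rn6 (59.2%) and Dok1 (59.6%). Just outside it were Depdc7 (60.5%), Ap4b1 (60.7%) and Lpar5 (60.7%).

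The genes were set against 28 lists of pathway and marker genes with 905 distinct members, of which 819 were tested, 6.14% of all tested genes. Of the 87 genes, 6 stood in a list (6.9%), 1 each in 6 lists, and the other 22 lists held none, among them pluripotency, primitive endoderm, oocyte and Hippo pathway genes. Among 42 tested subunits of the class I deacetylase complexes, Hdac1 was the member. In this list 5 genes were called lower and 9 higher in Hdac1/2 cKD, 2 lower and 7 higher in Sin3a KD. The list includes Hdac1, an siRNA target that is low in both knockdowns by the choice. The other targets, Hdac2 and Sin3a, also belong to these complexes, and each was called lower where it was targeted. Lower calls in this list can therefore come from siRNA targets and do not describe the other subunits alone. The lists below include their member in the same way. Over all tested genes, 7.81% were called higher (15.6% in either direction) in Hdac1/2 cKD and 3.6% higher (7.96% in either direction) in Sin3a KD. Lcp1 was the member of 22 tested trophectoderm genes, of which 8 were lower and 1 higher in Hdac1/2 cKD, 2 lower and 2 higher in Sin3a KD. Id3 was the member of 36 tested TGF-beta, Wnt and Notch genes, of which 4 were lower and 6 higher in Hdac1/2 cKD, 1 lower and 3 higher in Sin3a KD. Anxa3 stood in the keratin and cytoskeleton list, Prmt6 among other chromatin genes and Gadd45g among DNA methylation genes.

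Summed levels of marker lists were also compared between the groups. The 35 oocyte genes in the file summed to between 8134 and 9372 normalised counts in Hdac1/2 cKD, and to between 9968 and 11824 in Sin3a KD, against 12299 to 13212 in NC, so both knockdowns were below NC. A sum is carried by its most abundant genes: the median log2 change of the 28 tested oocyte genes was 0.33 in Hdac1/2 cKD and -0.02 in Sin3a KD, and limma called 2 higher and 1 lower in Hdac1/2 cKD and 0 in Sin3a KD, where 1 higher and 2 lower had an unadjusted p under 0.05. In none of the defining oocyte markers Zp3, Gdf9, Bmp15 and Nlrp5 did both knockdowns lie below NC, and Zp3 had 87.3, 98.5 and 117 in Hdac1/2 cKD and 62.2, 64.1 and 56.7 in Sin3a KD, against 77.4, 60.9 and 104 in NC. Of the 14 granulosa-cell genes in the file, 10 reached a value of 10, and the list summed to between 274 and 339 in Hdac1/2 cKD, and to between 307 and 369 in Sin3a KD, against 172 to 259 in NC. Among its defining markers, Fshr and Inha were not in the file and could not be checked. Cyp19a1 had at most 6.25 and Amh at most 13.2 in any library. Foxl2, the remaining defining marker, had 8.01, 25.2 and 35.4 in Hdac1/2 cKD and 41.6, 21.7 and 15.2 in Sin3a KD, against 3.97, 7.41 and 7.77 in NC, so both knockdowns lay above NC.

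The 25 trophectoderm genes summed to between 24719 and 28883 in Hdac1/2 cKD, and to between 36093 and 38979 in Sin3a KD, against 34569 to 39372 in NC. The Hdac1/2 cKD sums lay below NC and those of Sin3a KD overlapped it. Of their defining markers, Cdx2 had 174, 205 and 155 in Hdac1/2 cKD and 1036, 776 and 705 in Sin3a KD, against 1461, 955 and 1142 in NC. Gata3 had 398, 394 and 334 in Hdac1/2 cKD and 880.1, 696 and 877 in Sin3a KD, against 709, 704 and 807 in NC, so for both genes Hdac1/2 cKD lay below NC and Sin3a KD overlapped it. The keratins went the other way, with Sin3a KD below NC and Hdac1/2 cKD overlapping it. Krt8 had 1177, 1568 and 1439 in Hdac1/2 cKD and 391, 566 and 459 in Sin3a KD, against 1462, 1095 and 2098 in NC. Krt18 had 647, 719 and 665 in Hdac1/2 cKD and 406, 367 and 344 in Sin3a KD, against 658, 499 and 703 in NC.

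The 35 pluripotency genes summed to between 102925 and 105891 in Hdac1/2 cKD, and to between 119305 and 129319 in Sin3a KD, against 129109 to 142578 in NC. The Hdac1/2 cKD sums lay below NC and those of Sin3a KD overlapped it. Of their markers, Pou5f1 lay between 13954.5 and 16141.5 in Hdac1/2 cKD, below NC, and between 19180 and 20930 in Sin3a KD, against 19065 to 19477 in NC. Nanog had 828, 1033 and 931 in Hdac1/2 cKD and 422, 875 and 587 in Sin3a KD, against 1012, 1257 and 1738 in NC, with Sin3a KD below NC. Sox2 was low, with at most 14.2 in Hdac1/2 cKD and 29.3 in Sin3a KD, against 4.66 to 36.6 in NC, and the groups overlapped.

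The 19 primitive endoderm genes summed to between 17072 and 18654 in Hdac1/2 cKD, and to between 21116 and 22543 in Sin3a KD, against 19441 to 20889 in NC, so Hdac1/2 cKD lay below NC and Sin3a KD above it. Gata6 had 4987, 5676 and 5828 in Hdac1/2 cKD and 8870, 7201 and 8150 in Sin3a KD, against 8314, 6889 and 7317 in NC. Gata4 had 419, 252 and 323 in Hdac1/2 cKD and 411, 365 and 269 in Sin3a KD, against 599.7, 445 and 672 in NC. Both knockdowns lay below NC for Gata4, and Hdac1/2 cKD alone did for Gata6. Sox17 had at most 27.5 in Hdac1/2 cKD and 3.24 in Sin3a KD, against 0 in all 3 NC libraries. How far any of these cell types bears on the values of the 87 genes was not tested.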

How the data were processed

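Per the submitters' processing notes, the authors counted reads with Salmon and normalised them with DESeq2 on build GRCm38. No source used here gives their versions or the transcript annotation. The deposited signal values are gene-level counts scaled between libraries and are not whole numbers, so count tests were not used. A line with no gene name, with 0.00543% to 0.00896% of each library's total, was left out. The RFP and GFP RNA that the labels say was added before extraction was not used here.

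The 87 genes were found by the rule given in the report. The genes and gene lists were chosen with earlier results of these data known. Levels were fitted as log2(value + 1), which understates changes of low genes, with limma 3.58.1 in R 4.3.3 over all 9 libraries, 1 mean per group, with trended and robust variances. Genes with at least 10 in at least 3 libraries were tested, 13343 in all, with Benjamini-Hochberg adjustment and a threshold of 0.05. The fit was tested on simulated data.

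Named by rule were the targets, members of a list, the 20 genes with the lowest larger ratio to NC (predicted models left out), genes called between the knockdowns, and those nearest the ceiling. Results for some of these genes are not reported here. Other genes named, role groups, paralogs and the printed promoters were chosen after their values were seen. Shared sequence was counted as distinct 31-base stretches in GENCODE vM21 transcripts, and promoters are 250 bases before RefSeq starts, searched for 14 motifs, of which TEAD was picked out after the shares were seen. CpG-rich means a GC content over 50% and an observed-to-expected CpG ratio over 0.6. Alternatives covered the pseudocount, filter, scaling, variance moderation, lane, replicate block, the ceiling and each library left out.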

Additional observations from a re-analysis of the deposited data

Results flagged for a closer look

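For 9 of the 87 genes the effects of the knockdowns differed from each other, by the limma test of Hdac1/2 cKD against Sin3a KD. The log2 difference was -1.58 for Gm10093, -1.23 for Serpinb9b, -1.10 for Fam83b, -0.98 for Hdac1, -0.93 for Tspan1 and -0.40 for Pramel4, all lower in Hdac1/2 cKD. It was 1.34 for Galc, 0.93 for Zfp947 and 0.49 for Slc35f2, all higher in Hdac1/2 cKD. In 8 of these genes all 3 values of each knockdown lie on their own side of the other, and Zfp947 is the exception. The call and this separation rest on the same values. Lower were 6.90% of the 87 genes and higher 3.45%, while 17.3% of all tested genes were called in either direction. The groups did not overlap for 21.8% of the 87 genes and 39.7% of all tested genes. With lane as a factor, only Hdac1 and Gm10093 kept their call. Hdac1 is itself a target of the siRNA in 1 of the groups compared, and Gm10093 shares most of its sequence with it.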

How the results depend on the processing

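The choice of genes moved most with its ceiling: 50% gave 39 genes and 70% gave 200. Allowing overlap with NC gave 161, an NC mean of at least 20 gave 107 and one of at least 100 gave 59. With libraries scaled to equal totals, 60 genes met the rule, all among the 87, since that scaling shifts the median gene by 0.11 in Hdac1/2 cKD and 0.09 in Sin3a KD against NC (log2). Leaving out 1 library at a time gave 93 to 163 genes, with 141 without NC replicate 1, 163 without NC replicate 2 and 102 without NC replicate 3, of which 65 were shared with the 87. A shorter list of libraries makes the rule easier to meet.

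Between the knockdowns, all-gene calls were 450 higher and 552 lower with sequencing lane as a factor. With plain variance moderation they were 842 higher and 775 lower, against 1133 higher and 1171 lower in the main fit. Among the 87 genes, lane as a factor left 0 higher and 2 lower, which are Hdac1 and Gm10093. Plain moderation left 1 higher and 4 lower. Leaving out 1 library gave 715 to 1372 higher and 683 to 1387 lower over all genes, and 0 to 4 higher and 3 to 6 lower among the 87. Of these, the fits without Hdac1/2 cKD replicate 2, Hdac1/2 cKD replicate 3 or Sin3a KD replicate 3 gave 0 higher among the 87, and those without Sin3a KD replicate 1 or replicate 2 gave 3 lower. Without NC replicate 3 the count stayed at 3 higher and 6 lower. Over 18 alternatives Hdac1 and Gm10093 kept their call in all, Tspan1 in 17, Galc in 14, Serpinb9b in 13, Fam83b and Pramel4 in 12, Slc35f2 in 11 and Zfp947 in 9, and none changed direction.

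Replicate numbers did not pair the samples: same-numbered libraries had correlations of deviations between -0.019 and 0.058, with 0 of 9 pairs above 0.1. With a replicate block, 1138 genes were higher and 1234 lower, and among the 87 genes 3 were higher and 6 lower. Values are normalised, so depth sets no interval here, and 28 of the 87 genes have an NC mean under 100, where single libraries carry most weight.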
